A study of Rattus norvegicus with 6 samples.

Results

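Apod and 9 other genes that carry, release or bind lipid were followed in Schwann cell precursors (SCPs) and repair Schwann cells (RSCs) of the rat: Apod itself, Apoe, Apoc1, Lpl, Abca1, Abcg1, Fabp4, Fabp5, Fabp7 and Pltp. They are 10 of the 29468 gene symbols in the tables, and each was found by its symbol, with the values of all its named transcripts summed in each sample. The genes were chosen by their FPKM in these same samples, Apod for the largest difference between the groups and the others as lipid carriers beside it. Their levels in the SCPs and the RSCs are therefore given as a description, with no test.

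RNA came from 3 SCP and 3 RSC preparations, all of wild type LEWIS rats. The SCPs were dissociated from both sciatic nerves and the brachial plexus at embryonic day 14, with no treatment. The RSCs were dissociated from the distal part of the sciatic nerve of rats 10 weeks old, 1 week after that nerve had been cut. The groups thus differ in age, in injury and in the nerves taken, and these cannot be told apart. In the study's methods, dissociated cells spent a short time in uncoated flasks to take out adherent cells such as fibroblasts and macrophages, and cells of the nerve other than Schwann cells could remain. In RNA from such mixed cells, fewer cells of a type and less RNA per cell cannot be told apart.

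Lipids travel between cells bound to apolipoproteins. Lipases free fatty acids from the particles, ABC transporters load cholesterol onto apolipoproteins at the cell surface, and small binding proteins carry fatty acids through the cytosol. After a nerve is cut, Schwann cells and macrophages break down myelin, a membrane rich in cholesterol, and apolipoproteins are known to accumulate in the distal nerve. LXR receptors, nuclear receptors that sense oxidised cholesterol, are known to activate Apoe, Abca1 and Abcg1.

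Values are FPKM, in which fragments are scaled by the size of a transcript and of the library, and can be compared between genes. Named transcripts summed to between 497389 and 617268 FPKM per sample. Transcripts that Cufflinks assembled without a name held 18.6 to 23.4% of all FPKM in the RSCs and 26.1 to 31.9% in the SCPs. Globin transcripts took 7.23%, 6.09% and 22.5% of the named FPKM in SCPs 1 to 3 and 0.387 to 0.504% in the RSCs. A value listed as 0 can be a failed estimate, as for Pltp in RSC 3, where an unnamed transcript at the same place held the signal. The absolute depth is unknown, and the spread of the 3 preparations is the measure of error used here. Cufflinks also gave confidence bounds for each transcript within a sample, but some FPKM lay outside them. How these 3 differ (animals, litters or days) is not given in the labels.

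Apod and Apoe were the 2 highest of all symbols in every RSC sample, Apod first and Apoe second. Apod encodes a lipocalin, a small secreted carrier of arachidonic acid and other lipids that is long known from injured nerve. Its FPKM was 3.95, 9.13 and 12.3 in SCPs 1 to 3, and 17237, 22830 and 16786 in RSCs 1 to 3. The lowest RSC sample was thus above the highest SCP sample by 3 orders of magnitude. The ratio of the group means was 2238, and the log2 fold change of FPKM + 1 was 11.07 with a standard error (SE) of 0.37, the largest of the 13003 genes tested. In the SCPs Apod ranked 8683rd, 6230th and 5134th among the symbols by FPKM.

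Apod has 1 listed transcript, NM_012777.1 of 848 bases, at chr11:72705204-72726263 of rn6, and it carried all of the named signal. In SCP 1 an unnamed transcript at the same place added 4.59 FPKM, which brought that sample to 8.54, near the other SCPs, and the log2 fold change to 10.75. In the RSCs the listed FPKM of Apod lay above the confidence bounds that Cufflinks gave for it: the bounds were 13508 to 13793, 17638 to 17970 and 12956 to 13254. Of transcripts with at least 1 FPKM, 2.92 to 3.87% lay outside their own bounds in a sample. At its lower bounds Apod would still exceed every member other than Apoe in each RSC sample.

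Apoe encodes the main apolipoprotein of neural tissue and of macrophages. Its FPKM was 62.2, 67.0 and 49.2 in the SCPs, and 8889, 11853 and 13435 in the RSCs. The groups lay far apart, with means of 59.5 ± 9.20 and 11393 ± 2308 (SD, n = 3), a ratio of 192. The log2 fold change of 7.55 (SE 0.19) was the 12th largest. The RSC values of Apoe also lay outside their own bounds, just below them in RSC 1 (8910 to 9146) and RSC 2 (11900 to 12176) and above them in RSC 3 (11217 to 11434). Of 5 listed transcripts only NM_138828.3 had FPKM above 0, in all 6 samples. Its start is the middle one of the 3 listed for the gene. Unnamed transcripts added 18.7 FPKM in SCP 3 alone and brought it to 67.9, level with the other SCPs.

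The order of both carriers was turned between the groups. In SCPs 1 to 3 the level of Apod was 0.0635, 0.136 and 0.250 of that of Apoe, and in RSCs 1 to 3 it was 1.94, 1.93 and 1.25 times that of Apoe. Apoe led in every SCP and Apod in every RSC sample, also where the midpoint of the bounds replaced the FPKM. With these midpoints the share of Apod was 3.01%, 3.87% and 2.74% of the named FPKM in the RSCs, and that of Apoe was 1.99%, 2.61% and 2.37%.

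RefSeq sequence of the 250 bases before the start (build GRCr8, written 5′ to 3′ on the gene's strand) is shown for Apod and Apoe, the highest members, and for Abca1, whose window held the rarest match. Capitals mark the motifs found.

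Apod: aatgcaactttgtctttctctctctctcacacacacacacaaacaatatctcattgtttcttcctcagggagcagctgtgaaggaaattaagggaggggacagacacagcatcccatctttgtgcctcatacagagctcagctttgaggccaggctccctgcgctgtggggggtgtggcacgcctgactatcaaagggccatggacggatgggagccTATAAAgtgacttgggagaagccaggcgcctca
Apoe: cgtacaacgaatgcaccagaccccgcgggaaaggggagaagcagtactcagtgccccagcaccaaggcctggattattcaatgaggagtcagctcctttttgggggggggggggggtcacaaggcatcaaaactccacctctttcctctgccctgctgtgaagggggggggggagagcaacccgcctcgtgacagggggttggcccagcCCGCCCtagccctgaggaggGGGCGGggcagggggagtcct
Abca1: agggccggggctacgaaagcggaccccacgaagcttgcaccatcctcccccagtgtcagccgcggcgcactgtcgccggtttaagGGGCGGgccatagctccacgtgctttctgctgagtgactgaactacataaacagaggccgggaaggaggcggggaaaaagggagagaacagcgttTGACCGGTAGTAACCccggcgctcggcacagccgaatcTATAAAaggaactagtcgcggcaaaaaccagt

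These windows lie at chr11:82935970-82936219 on the plus strand for Apod, chr1:88484700-88484949 on the minus strand for Apoe and chr5:72596474-72596723 on the minus strand for Abca1. Promoters were found for 6 of the 10 members: Apod, Apoe, Apoc1, Abca1, Fabp7 and Pltp. The Apoe window is that of the middle start, which lies 1117 bases from the first in GRCr8. In rn6 the start of NM_138828.3 lies 1116 bases from the first.

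A set of 8 motifs was searched on both strands of 33469 promoter windows of this length, in which several starts of a gene count separately and can overlap. TATAAA, the TATA box, was in 12.9% of them, CCAAT in 34%, GGGCGG, the GC box, in 30.5%, the AP-1 site TGANTCA in 6.34% and the nuclear receptor half-site AGGTCA in 14.1%. The repeats of that half-site, which contain it, were rare, in 0.00299% with 4 free bases between the copies (DR4) and in 0.0508% with 1 (DR1). The last motif, GGTTA and GGTCA with 5 free bases between them, was spelled after the LXR element known from ABCA1, so that its match in Abca1 is no independent find, and 15 windows, or 0.0448%, held it.

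In Apod the only match was a TATA box that began 33 bases before the start. In Abca1 a TATA box began 32 bases before the start, the LXR-type element read on the opposite strand began 70 bases before it, and a GC box 165 bases before it. The Apoe window held 2 GC boxes and no TATA box. Apoc1 held a GC box 50 bases before its first start. The Pltp window held none of the 8 motifs.

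Apoc1 encodes a small apolipoprotein that rides on the same particles as Apoe and slows their uptake. It was listed at 0, 3.86 and 2.71 FPKM in the SCPs, and at 42.7, 64.6 and 76.5 in the RSCs. Every RSC sample was above every SCP sample, with a log2 fold change of 4.53 (SE 0.62). All its named FPKM lay in NM_001109996.1, and an unnamed transcript in RSC 3 raised that sample to 96.1. As listed, the level of Apoe was 17.3 and 18.1 times that of Apoc1 in SCPs 2 and 3, and 208, 183 and 176 times in the RSCs. The Cufflinks bounds of Apoc1 were 0 to 7.73 in SCP 2 and 0 to 7.24 in SCP 3. The SCP ratios thus have no firm upper limit, and whether the ratio differed between the groups was not tested.

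Apoc1 and Apoe sit side by side on chromosome 1 of rn6, at chr1:80606638-80609921 and chr1:80612894-80616820, in a cluster with Apoc4 and Apoc2. Apoc4, a minor apolipoprotein of very low density particles, was listed at 0 in all SCPs and at 5.27, 9.93 and 15.0 FPKM in the RSCs. It passed the test used for genes outside the 10, limma on log2(FPKM + 1) with Benjamini-Hochberg adjustment over all genes tested (adjusted p = 0.00086). Apoc2, the activator of lipoprotein lipase, was listed at 0 in the SCPs and at 0, 4.45 and 2.70 in the RSCs, which did not pass (adjusted p = 0.12). The 4 genes of the cluster were thus far apart in level in the RSCs, where Apoe stood 2 orders of magnitude above the rest.

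Lpl, the lipoprotein lipase that frees fatty acids from particles, stayed low. Its FPKM was 1.27, 1.59 and 3.13 in the SCPs, and 5.68, 4.90 and 3.85 in the RSCs. The groups did not overlap, but the gap between SCP 3 and RSC 3 was under 1 FPKM. The ratio of means was 2.41 and the log2 fold change 0.99 (SE 0.30), under the 4-fold limit.

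Abca1 and Abcg1 encode the exporters that pass cholesterol out of the cell, Abca1 to lipid-poor apolipoproteins and Abcg1 to particles already formed. Abcg1 had 1.79, 3.66 and 3.66 FPKM in the SCPs, and 26.4, 31.6 and 35.5 in the RSCs. All RSC samples were higher, with means of 3.04 ± 1.08 and 31.2 ± 4.53 (SD, n = 3) and a log2 fold change of 3.02 (SE 0.25). Of its 2 listed transcripts, NM_053502.1 held 79.2 to 88.4% of the level in the SCPs and 81.3 to 88.6% in the RSCs, so that the mix did not part the groups.

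The named transcripts of Abca1 gave 0, 5.52 and 0 FPKM in the SCPs, and 29.7, 53.4 and 24.6 in the RSCs. These values rested on different transcripts: NM_178095.2 alone in SCP 2 and RSC 3, XM_008763709.1 alone in RSC 1, and XM_008763709.1 with XM_008763710.1 in RSC 2. Much of the gene's signal lay in unnamed transcripts that span the same locus at chr5:69857717-69983036. With these added, the level was 8.98, 18.1 and 14.1 FPKM in the SCPs, and 100.5, 107.9 and 134.0 in the RSCs. The groups stayed apart, no sample was left at 0, and the log2 fold change moved from 4.23 (SE 0.80) to 3.01 (SE 0.25), nearly that of Abcg1.

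Fabp5, the epidermal fatty acid binding protein, was the highest member in the SCPs and the only one lower in the RSCs. Its FPKM was 275, 235 and 255 in the SCPs, and 204, 170 and 208 in the RSCs. The groups did not overlap, but the means of 255 ± 19.7 and 194 ± 21.1 (SD, n = 3) differed by a ratio of only 1.31. The log2 fold change of -0.40 (SE 0.11) is to be read beside the median of all genes, -0.17. Median-of-ratios scaling, which sets that median to 0.0092, left -0.18, and quantile normalization gave -0.53.

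Fabp4, the binding protein of adipocytes, macrophages and capillary endothelium, was listed at 0 in all 3 SCPs and at 14.6, 14.7 and 20.6 FPKM in the RSCs. Since the SCPs were listed at 0, no fold is given. Fabp7, the brain type that marks early glia, was listed at 0 in 5 samples and at 0.511 FPKM in RSC 1, under the minimum for the test. Both Fabp4 (chr2:93792666-93797267) and Fabp5 (chr2:93981659-93985358) lie in a cluster of binding protein genes on chromosome 2, between which Pmp2, the fatty acid binding protein of myelin, is found. Pmp2 rose from 0.150, 0.419 and 0.158 FPKM in the SCPs to 20.8, 15.8 and 13.9 in the RSCs (log2 fold change 3.83, SE 0.23, adjusted p = 8.8e-05), while Fabp9 was listed at 0 throughout and Fabp12 at 0.0667 FPKM in SCP 2 alone.

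Pltp encodes phospholipid transfer protein, which moves phospholipid between particles and is itself secreted. Its named transcripts gave 12.6, 10.3 and 9.93 FPKM in the SCPs, and 290, 432 and 0 in the RSCs, and that 0 made the groups overlap. In RSC 3 an unnamed transcript of 1819 bases at chr3:161304469-161322017, inside the span of Pltp, had 442 FPKM. With it added, the RSCs stood at 290, 432 and 442, the log2 fold change went from 2.08 (SE 2.33) to 5.01 (SE 0.18), and the ratio of means became 35.4. RSC 3 alone decided the value: without that sample, or with its 0 left out, Pltp also passed the limits on p and fold.

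**Figure D1:**
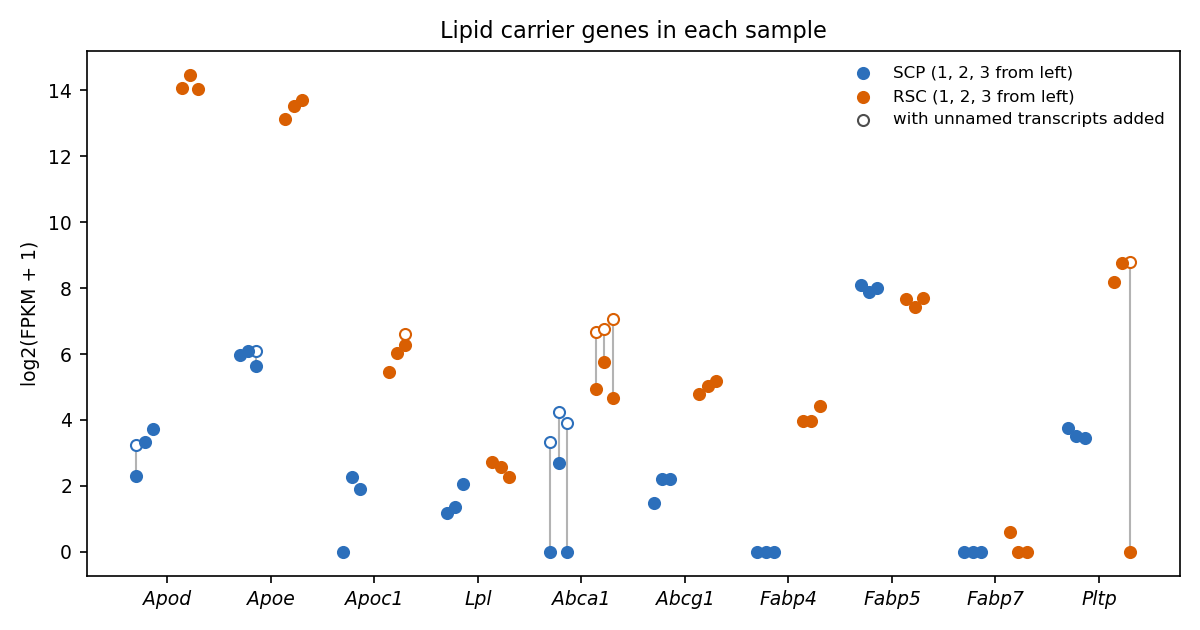
The level of each gene in the 6 samples, as log2(FPKM + 1). Filled points are sums of named transcripts, and open points joined to them by grey lines add the unnamed transcripts of the same locus. Apod lies at 3.95 to 12.3 FPKM in the SCPs and at 16786 to 22830 in the RSCs, Fabp5 is the only gene with every SCP above every RSC sample, and RSC 3 of Pltp moves from 0 to 442 FPKM.

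Within the SCPs the order of mean levels per length was Fabp5, Apoe, Pltp, Apod, Abcg1, Apoc1, Lpl, Abca1, then Fabp4 and Fabp7 at 0. The ranges of Pltp and Apod overlapped, and so did those of each pair of neighbours from Abcg1 downward. With unnamed transcripts added, Abca1 moved up to the place after Apoe in the SCPs, at a mean of 13.7 FPKM, and its range overlapped that of Pltp. Within the RSCs the order was Apod, Apoe, Pltp, Fabp5, Apoc1, Abca1, Abcg1, Fabp4, Lpl and Fabp7. There Pltp overlapped Fabp5, and Apoc1, Abca1 and Abcg1 overlapped in turn. With unnamed transcripts the RSC order became Apod, Apoe, Pltp, Fabp5, Abca1, Apoc1, Abcg1, Fabp4 and Lpl, with every neighbour apart.

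Of the 10 genes, 9 passed the minimum mean of 1 FPKM, and 6 of the 10 lay past both limits, a p below 0.01, taken here without adjustment, and more than 2 on the log2 scale, in the direction of the RSCs. These were Apod, Apoe, Apoc1, Abca1, Abcg1 and Fabp4, and none lay past them in the direction of the SCPs. Over all genes tested, 7.81% passed in the direction of the RSCs and 3.78% in that of the SCPs. Adding unnamed transcripts made it 7, with Pltp, against 8.57% of all genes. The count was 5 without RSC replicate 2, where Abca1 was lost, and 7 without RSC replicate 3. The groups did not overlap in 8 of the 9, against 58.6% of all genes tested. In 7 of them the RSCs were above (24.9% of all genes) and in 1 the SCPs (33.7%), and with unnamed transcripts added all 9 were apart, against 72.4%. Since the choice of the genes used this contrast, nothing is read from these counts. The median log2 fold change was 4.12 over the 9 and -0.17 over all genes tested.

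Summed, the 10 genes made up 5.38%, 6.97% and 5.80% of all named FPKM in RSCs 1 to 3, and 0.0662%, 0.0647% and 0.0544% in SCPs 1 to 3. The means were 6.05% ± 0.826 and 0.0618% ± 0.00640 (SD, n = 3). Apod alone held 3.47%, 4.49% and 3.18% in the RSCs and Apoe 1.79%, 2.33% and 2.55%. Both carriers together made up 97.7 to 98.8% of the 10 genes' FPKM in the RSCs but 18.3 to 22.6% in the SCPs, where Fabp5 held most of the rest. The level of Fabp5 was 69.6, 25.8 and 20.7 times that of Apod in the SCPs, and Apod was 84.4, 134 and 80.7 times Fabp5 in the RSCs. Fabp5 itself took 0.0510%, 0.0452% and 0.0413% in the SCPs and 0.0411%, 0.0334% and 0.0395% in the RSCs, and with the globins taken out of the total its share in SCP 3 was 0.0533%. As a share of all transcripts, unnamed ones included, Fabp5 took 0.0347%, 0.0326% and 0.0305% in the SCPs and 0.0314%, 0.0271% and 0.0321% in the RSCs, and the groups overlapped.

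**Figure D2:**
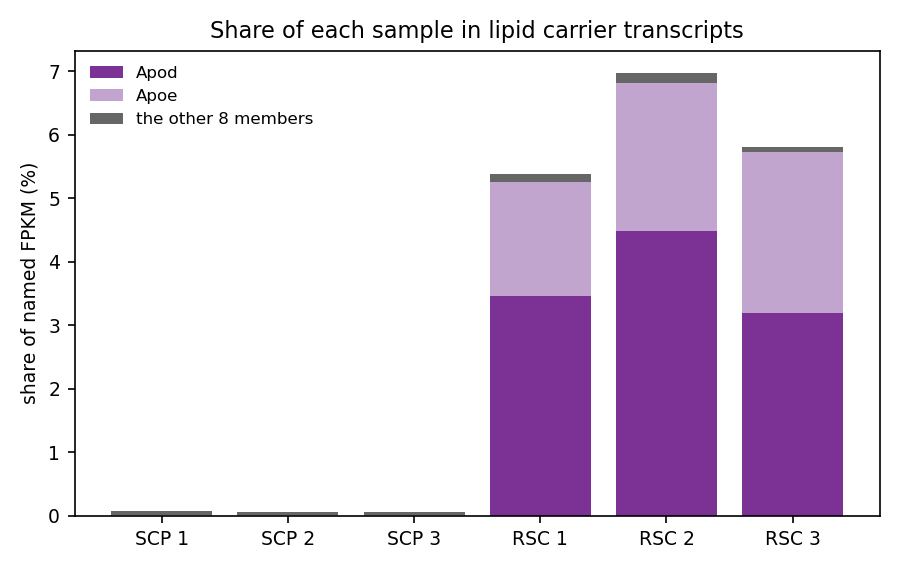
The share of all named FPKM held by the 10 genes in each sample, in percent, as bars from 0 split into Apod, Apoe and the other 8. The RSC bars reach 5.38, 6.97 and 5.80%, nearly all Apod and Apoe, and the SCP bars stay below 0.07%.

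The genes whose pattern over the 6 samples was nearest to that of Apod, by Euclidean distance of log2(FPKM + 1) centred on each gene's mean, were S100a4 (distance 1.97), Igfbp7 (2.04), Lgals3 (3.05), Lyz2 (3.25) and the ribosomal RNA gene Rn18s (3.63). S100a4 stood at 0.601 to 3.19 FPKM in the SCPs and 1753 to 1870 in the RSCs, and Igfbp7 at 0 and 771 to 854. All 5 were thus low or at 0 in the SCPs and at 271 FPKM or more in the RSCs, and the distance mostly reads the size of that step. Nearest to Fabp5, the member with the lowest log2 fold change, were Adrm1 (0.116), Rapgef2 (0.125) and LOC100912599 (0.125). Adrm1, a subunit of the proteasome, had 66.6 to 74.2 FPKM in the SCPs and 50.1 to 59.9 in the RSCs.

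Other genes of lipid carriage were taken from 8 lists that leave out the 10, written from general knowledge. These lists were chosen with earlier results of these data known, so their counts are no independent support. Of 134 genes 133 were listed and 89 had a mean of at least 1 FPKM. In the limma test 25 of the 89, or 28.1%, passed both limits in the direction of the RSCs and 2, or 2.25%, in the direction of the SCPs, beside 7.81% and 3.78% of all genes tested. By p under 0.01 alone, 45 were higher in the RSCs, 6 were higher in the SCPs and 38 did not pass, and the shares of all genes were 18.1% and 22.4%. The median log2 fold change of the 89 was 0.90 and that of all genes -0.17. With unnamed transcripts added, 95 of the genes were tested. By p under 0.01 alone 52 were then higher in the RSCs, 15 were higher in the SCPs and 28 did not pass. The shares of all genes by p alone are not given for that sum. Its median log2 fold change was 0.69 over the 95 and -0.24 over all genes. In the counts per list below, higher means past both limits.

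Among apolipoproteins and lipocalins 5 of 8 tested were higher in the RSCs and none in the SCPs. Clu, clusterin, an apolipoprotein and chaperone, had 2.78, 3.63 and 4.21 FPKM in the SCPs and 183, 116 and 181 in the RSCs (log2 fold change 5.13, SE 0.23, adjusted p = 3.8e-05). Apoc4 was the next, and Apol9a, the lipocalin Lcn2 and the retinol carrier Rbp4 also passed. In the RSCs Clu had the highest mean of this list, well below Apoe and above Apoc1.

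Of 13 lipoprotein receptors tested, 6 were higher in the RSCs and 1 in the SCPs. Msr1, a scavenger receptor of macrophages, rose from a mean of 0.698 to 17.6 FPKM (log2 fold change 3.48, SE 0.26, adjusted p = 0.00022). Stab1, another scavenger receptor, had 0, 4.84 and 3.57 FPKM in the SCPs and 15.5, 36.9 and 29.6 in the RSCs (log2 fold change 3.16, SE 0.73, adjusted p = 0.015), and lost the call in several alternatives. Scarb1, Cd36, Olr1 and Apobr were the others, all known to take up modified or particle-bound lipid, and Apobr lost its call with unnamed transcripts added. Lsr, a receptor of triglyceride-rich particles that also sits at cell junctions, fell from 45.6, 39.6 and 30.6 FPKM to 10.0, 7.41 and 5.28, but by less than 4-fold with unnamed transcripts (log2 fold change -2.23, then -1.83).

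Of 7 lipases and cofactors tested, 4 were higher in the RSCs and none in the SCPs. Angptl4, a secreted inhibitor of lipoprotein lipase, had 3.97, 3.51 and 3.74 FPKM in the SCPs and 39.9, 44.6 and 33.4 in the RSCs (log2 fold change 3.08, SE 0.15, adjusted p = 4.9e-05). Its RSC level was thus several times that of Lpl itself. Mgll, which cuts monoacylglycerol, stood at 0, 1.03 and 0.425 FPKM and at 55.1, 7.09 and 7.25, and the spread came from the naming: with unnamed transcripts the RSCs were 55.1, 35.1 and 38.9 (log2 fold change 3.45, adjusted p = 0.016, then 4.39). The lysosomal lipase Lipa and the droplet lipase Pnpla2 also passed.

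Of 7 droplet and cholesterol ester genes tested, 2 were higher in the RSCs. Nceh1, which frees cholesterol from its esters, rose from 0.907 to 8.83 FPKM (log2 fold change 2.37, SE 0.18, adjusted p = 0.00022). Soat1, which makes the esters, rose from 7.84 to 34.6 FPKM (log2 fold change 2.12, SE 0.40, adjusted p = 0.0069), and fell under the 4-fold limit with unnamed transcripts added (1.71) or without SCP or RSC replicate 3.

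Of 10 ABC lipid transporters tested besides the exporters above, 1 was past both limits. Abca8a, a transporter of the Abca6 to Abca9 gene group, had 0.977, 3.39 and 1.17 FPKM in the SCPs and 176, 239 and 193 in the RSCs (log2 fold change 6.25, SE 0.33, adjusted p = 6.3e-05). It exceeded Abcg1 in every RSC sample, and Abca1 as well. Its neighbour Abca9 was too low to test by name, and passed the limits with unnamed transcripts added (log2 fold change 2.02). Abca5, also too low to test by name, went the other way on that sum. It had 9.25, 5.13 and 6.59 FPKM in the SCPs and 1.30, 1.07 and 1.22 in the RSCs (log2 fold change -1.83, adjusted p = 0.00039). The median log2 fold change of the list was 0.56, and 0.068 with unnamed transcripts added.

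Of 10 genes of fatty acid binding and uptake tested, only Pmp2 passed both limits as higher in the RSCs. Only Fabp3 passed both as higher in the SCPs. Fabp3, the heart and muscle type, had 11.9 ± 1.02 FPKM (SD, n = 3) in the SCPs and was listed at 0 in all 3 RSCs (adjusted p = 5.5e-05). The binding proteins thus differed in direction: Fabp4 and Pmp2 were higher in the RSCs, Fabp3 and, by a small ratio, Fabp5 in the SCPs. Bsg, a chaperone of monocarboxylate carriers and one of the highest genes of all 8 lists, moved by 0.57 on the log2 scale.

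Of 16 lipid transfer proteins tested, 2 were higher in the RSCs. Npc2, which hands cholesterol out of the lysosome, had 70.9, 33.9 and 37.7 FPKM in the SCPs and 317, 319 and 400 in the RSCs (log2 fold change 2.90, SE 0.29, adjusted p = 0.00059). With unnamed transcripts it had 86.0, 87.4 and 78.1 FPKM in the SCPs and 317, 979 and 400 in the RSCs (log2 fold change 2.56). Gm2a, the lysosomal ganglioside carrier, rose from 53.9 to 338 FPKM (log2 fold change 2.63, SE 0.11, adjusted p = 3.0e-05). Dbi, the acyl-CoA binding protein, was abundant in both groups, with 283 to 324 FPKM in the SCPs and 341 to 413 in the RSCs, and had a log2 fold change of 0.33.

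Of 18 regulators and targets of LXR, PPAR and SREBP tested, 4 passed both limits as higher in the RSCs. None passed both as higher in the SCPs. By p under 0.01 alone, 9 were higher in the RSCs and 2 in the SCPs. Of these 2, Srebf2 had means of 37.1 FPKM in the SCPs and 13.4 in the RSCs (log2 fold change -1.40, adjusted p = 0.00063). Rxrg had means of 18.9 and 5.47 FPKM (log2 fold change -1.59, adjusted p = 0.0032). Ch25h, which makes 25-hydroxycholesterol, had 3.69, 1.86 and 2.43 FPKM in the SCPs and 57.6, 54.1 and 44.5 in the RSCs (log2 fold change 3.88, SE 0.22, adjusted p = 7.8e-05). Cyp27a1, which makes 27-hydroxycholesterol, rose from 1.06 to 13.9 FPKM (log2 fold change 2.83, SE 0.27, adjusted p = 0.00048). Nr1h3, the receptor LXR alpha, and Cyp7b1, which turns such oxysterols over, were the others past both limits. Arl4c, a small GTPase known as an LXR target, was too low to test by name. With unnamed transcripts it had 2.03, 0.807 and 0.611 FPKM in the SCPs and 15.7, 16.5 and 16.3 in the RSCs (log2 fold change 3.05, adjusted p = 8.0e-05). Other genes of the list went the other way on that sum. The log2 fold change of the LXR receptor Nr1h2 fell from 1.83 to 0.34 and no longer passed by p. Rxra (-0.80, adjusted p = 0.017) and Ncor1 (-0.46, adjusted p = 0.016) were lower in the RSCs. By p under 0.01 alone, 8 of the 20 then tested were higher in the RSCs and 4 in the SCPs.

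**Figure D3:**
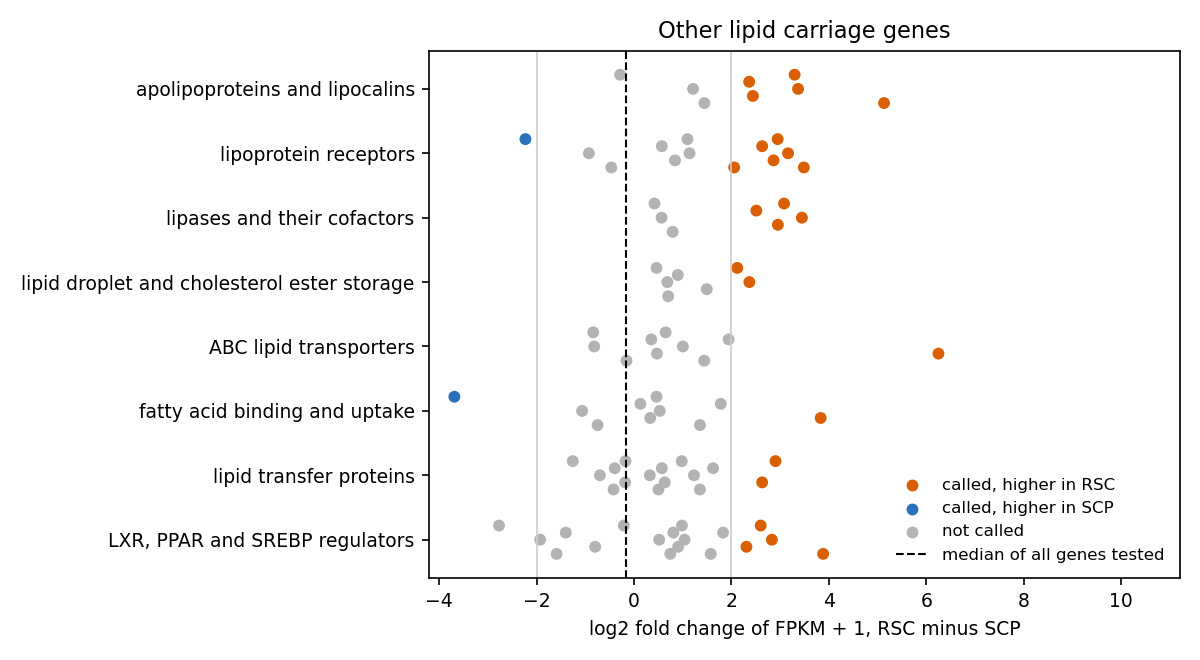
The log2 fold change of FPKM + 1, RSC minus SCP, of each tested gene of the 8 lists, 1 point per gene and 1 line of points per list, set apart vertically only for sight. Orange points passed both limits in the direction of the RSCs (25 genes), blue points in that of the SCPs (Lsr and Fabp3). Grey lines mark the fold limits and the dashed line the median of all genes tested, -0.17.

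Markers of several cell types were read beside these levels. Sox10, the factor that defines the Schwann lineage, stood at 179, 175 and 181 FPKM in the SCPs and 149, 143 and 143 in the RSCs, so that both groups carried it at a like level. The 7 Schwann lineage markers summed to 443 to 511 FPKM in the SCPs and 1873 to 2395 in the RSCs, and 2 of the 6 tested were past both limits. The 4 markers of the precursor stage were higher in the RSCs in sum (21.8 to 35.3 against 134 to 185 FPKM), but they did not move together. Dhh had 1.66 to 4.74 and 49.5 to 65.2 FPKM and Sox2 a mean of 10.2 and 89.2. Tfap2a was higher in the SCPs, with 7.52 to 12.9 against 1.03 to 3.81 FPKM (log2 fold change -1.77, adjusted p = 0.011), and Foxd3, mostly in unnamed transcripts, had 53.9 to 59.0 and 52.1 to 76.6 FPKM with these added (log2 fold change 0.095). The 4 markers of repair cells summed to 9.80 to 23.7 FPKM in the SCPs and 50.6 to 69.2 in the RSCs. These did not move together either, and of the 3 tested Gfap and Shh were past both limits. Gfap had means of 3.09 FPKM in the SCPs and 35.6 in the RSCs, and Shh had means of 0 and 13.8. Gdnf had a lower mean in the RSCs, 16.0 against 9.65 FPKM, and its groups overlapped (log2 fold change -0.63). Olig1 was listed at 0 in the SCPs and was at most 0.587 FPKM in the RSCs.

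Macrophages and fibroblasts also make Apoe and, in part, the other genes here. The macrophage and leukocyte markers summed to 15.7 to 48.0 FPKM in the SCPs and 2428 to 3091 in the RSCs, and all 11 tested were past both limits. The 10 fibroblast markers summed to 848 to 1189 FPKM and 5463 to 8080, with 6 past both limits. Among them Dcn had 8.60, 14.9 and 23.9 FPKM in the SCPs and 1175, 2697 and 2308 in the RSCs, where unnamed transcripts raised RSC 1 to 2744. Fbln1 went the other way, from a mean of 179 FPKM in the SCPs to 46.4 in the RSCs (log2 fold change -1.92, adjusted p = 0.00011). The part of either cell type in these levels was not tested.

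Adipocytes are known for Fabp4, Lpl and Cfd. Of the 7 adipocyte markers Cfd alone was above 1 FPKM in any sample, with 0.285 to 0.541 FPKM in the SCPs and 98.9 to 180 in the RSCs. Lep and Cidec were listed at 0 in all 6 samples, Adipoq was at most 0.148 and Plin1 at most 0.171 FPKM. The 10 endothelial markers summed to 50.4 to 86.6 FPKM in the SCPs and 123 to 137 in the RSCs, with none past both limits. The 6 neuron markers summed to 27.1 to 49.7 and 17.5 to 23.9 FPKM, with 1 higher in the SCPs.

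**Figure D4:**
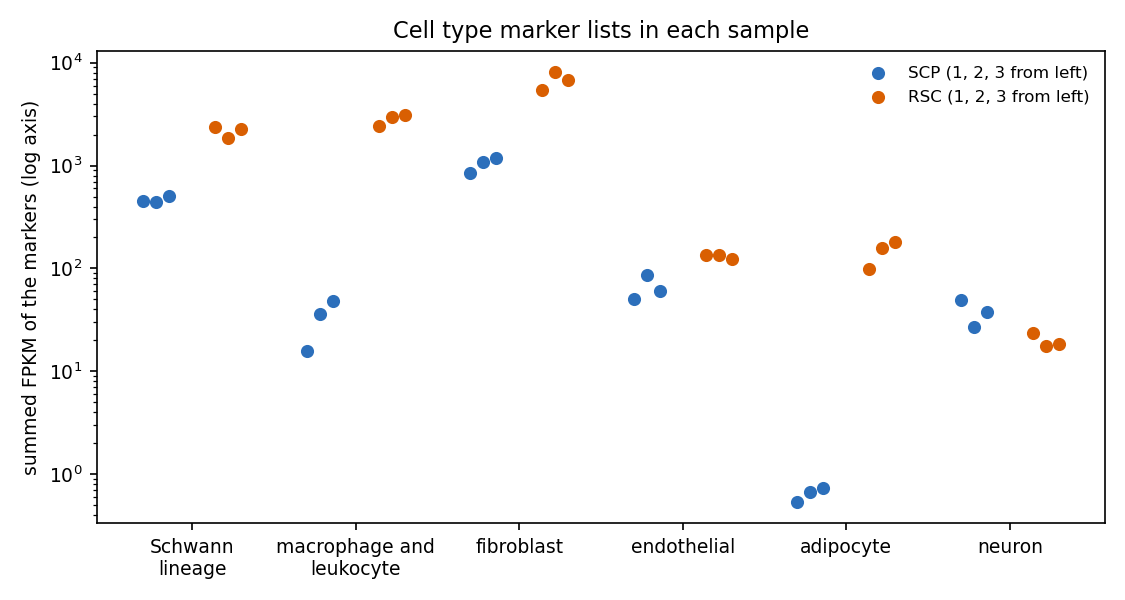
The summed FPKM of 6 marker lists in each sample, on a log axis. The macrophage and leukocyte list lies at 15.7 to 48.0 in the SCPs and 2428 to 3091 in the RSCs, the fibroblast list at 848 to 1189 and 5463 to 8080, and the endothelial list at 50.4 to 86.6 and 123 to 137.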

How the data were processed

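Per the labels, FPKM came from mRNA libraries processed with FastQC 0.11.2, TopHat2 2.1.0 and Cufflinks 2.2.1 on rn6. The authors deposited 1 Cufflinks table per sample with the FPKM of each transcript, its confidence bounds and its coverage, a signal used here only for relative depth, which was 0.88 to 1.00 of the highest in the SCPs and 0.79 to 0.84 in the RSCs. Transcripts with date-like names, 77 in each sample, were left out.

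FPKM of named transcripts were summed by symbol. The 13003 genes whose mean reached 1 FPKM were compared with limma 3.58.1 (R 4.3.3) on log2(FPKM + 1) with a variance trend, two-sided, RSC minus SCP. This scale understates the change of low genes. Benjamini-Hochberg adjustment ran over all 13003. Tables were made with pandas 2.3.3 and figures with matplotlib 3.10.9. The fit was tested on simulated data. The tables hold no counts, so no count test was run. Genes that share reads with close relatives are uncertain.

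The members and lists were chosen with earlier results of these data known. Named were the members, the 2 called genes of largest and of smallest log2 fold change in each list (2 at each end), the 3 highest of all lists, the marker genes, the 5 genes nearest to Apod and the 3 nearest to the member of lowest fold change. Apoc2, Fabp9, Fabp12, Arl4c, Abca9, Abca5, Srebf2, Rxrg, Nr1h2, Rxra, Ncor1 and the further called genes were named after their values were seen. Alternatives covered pseudocount, filter, scaling, transcripts, share denominators, bounds and left-out samples. Unnamed transcripts were added to the gene of the same locus that they overlapped most. Leaving out zeros where another sample reached 5 FPKM, and the midpoint of the bounds, were added after seeing the data.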

Additional observations from a re-analysis of the deposited data

How the results depend on the processing

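No direction of the members, or of the lipid genes named by rule, was turned in any alternative that was run. Over all genes, 1015 passed in the direction of the RSCs and 492 in that of the SCPs. With the ratio of group means the latter count was 809, with pseudocount 0.1 the counts were 1266 and 715, and with median-of-ratios scaling, which moved the median of all genes from -0.17 to 0.0092, they were 1143 and 392. Unnamed transcripts left 1 lipid gene past both limits in the direction of the SCPs instead of 2. By p under 0.01 alone they made it 15 instead of 6. The share of the 10 genes in the RSCs was 4.83% of all transcripts instead of 6.05% of the named, and that of Apod 2.96% instead of 3.71%. In the SCPs the 10 genes held 0.0439% of all transcripts, 0.0702% without the globins and 0.0690% by the midpoint of the bounds, instead of 0.0618%. Of values for single genes and lists, 776 kept their side of the limits or moved within the spread, 22 moved beyond it and 14 lost their call. Stab1 lost it with pseudocount 0.1, by adjusted p, and without RSC replicate 2 or 3 or SCP replicate 3, and Mgll by adjusted p and without any 1 of the SCP samples. The cause was not tested. Same-numbered samples did not deviate together (correlations 0.044, -0.0049 and 0.026), and replicates 1 and 3, but not 2, correlated best with their own number. With the replicate block 1005 and 477 genes passed, as did 6 of the 10 members, and Mgll was lost. Groups of 3 allow no test of single outlying samples, and FPKM without depth gives no counting error beyond the Cufflinks bounds.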
